A study of Homo sapiens with 15 samples.

Results

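The let-7 and miR-98 family was followed here as 10 microRNA (miRNA) genes taken by name from a table of read counts per gene: MIRLET7A2, MIRLET7A3, MIRLET7B, MIRLET7C, MIRLET7D, MIRLET7E, MIRLET7F2, MIRLET7G, MIRLET7I and MIR98. The table lists 50037 genes, of which 2139 are miRNA genes. Of the 10 members, 7 had counts, all in each of the 15 small RNA libraries, and MIRLET7A3, MIRLET7B and MIRLET7E had 0 counts in all of them. The table holds 12 loci of the family, and the other two, MIRLET7A1 with 0 counts and MIRLET7F1 with 53013, are given below where a member shares a sequence or a cluster with them.

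The libraries were made from cells labelled HEK-293, an established line of human embryonic kidney origin, while the title of the study speaks of macrophages. All cells carry the genotype label WT and were incubated for 18 h. A first group of 5 libraries received 20 µM GKT136901, which inhibits NOX1 and NOX4, a pair of NADPH oxidases, together with the lipid products that lipoprotein lipase (LPL) releases from very low-density lipoprotein (VLDL). A second group of 5 received the LPL products alone and is called LPL:VLDL. The third group of 5 received VLDL and carries the title pcDNA:VLDL, in which pcDNA is not explained. Replicates 1 to 5 of each group come, by the labels, from experiments 2 to 6, so that each experiment holds 1 library of every group. Nothing in the labels says whether the experiments used separate stocks of cells, and a p-value here covers only how far these samples scatter, part of which may be technical.

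Library totals ran from 5076917 to 9757123 counts, and the lowest was replicate 2 of the GKT136901 group. miRNA genes took 30.2% to 48.7% of the counts. Counts of 15 myeloid marker genes came to 6233 over all libraries, with 14 of the 15 genes counted and CSF1R, the receptor for macrophage colony-stimulating factor, at 1771 and the microglial and macrophage gene AIF1 at 0. Counts of 15 genes chosen as markers of the HEK-293 line came to 49, with LIN28B, INA, KRT18, NEFM and TUBB2B at 0. Blood and hepatocyte markers had 1 and 7 counts. The counts of these markers go against the label, though the lists were chosen with earlier results of these data known. A 0 can also come from reads lost to multiple mapping or exon overlap. The cells are called by their treatment below. The 3 libraries of experiment 2 stood apart: Y RNA genes took 3.12% to 3.25% of their counts and 0.546% to 1.05% in experiments 3 to 6, and the myeloid markers summed to 79.1 to 120 CPM (counts-per-million) against 25.4 to 50.4. By treatment that sum ran from 28.3 to 79.1 CPM in the GKT136901 group, from 25.4 to 120 in the LPL:VLDL group and from 36.5 to 101 in the VLDL group, and its part in any result below was not tested.

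The let-7 miRNAs are among the most conserved small RNAs of animals and are abundant in differentiated cells. Each is cut from a hairpin precursor by the nucleases DROSHA and DICER1 and loaded into an Argonaute protein, where its seed, the stretch near the 5′ end, pairs with messenger RNAs such as HMGA2, MYC and the RAS genes and represses them. The RNA-binding proteins LIN28A and LIN28B block the maturation of let-7 precursors in stem cells and many tumours. In macrophages, members of the family are known to act on inflammatory messages, among them IL6 and TLR4.

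The 5′ arms of the family are shown because their closeness decides which loci a short read can be told from. They are the RefSeq mature sequences for GRCh38.p14, and the capitals mark the seed, bases 2 to 8.
let-7a-5p: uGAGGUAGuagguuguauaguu
let-7b-5p: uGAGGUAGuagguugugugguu
let-7c-5p: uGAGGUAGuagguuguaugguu
let-7d-5p: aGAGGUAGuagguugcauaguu
let-7e-5p: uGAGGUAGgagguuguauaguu
let-7f-5p: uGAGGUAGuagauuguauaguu
let-7g-5p: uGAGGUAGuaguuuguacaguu
let-7i-5p: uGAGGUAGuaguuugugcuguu
miR-98-5p: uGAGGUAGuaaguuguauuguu
All 9 arms carry the same seed. let-7a differs by 1 base from let-7c, from let-7e and from let-7f, let-7b differs by 1 base from let-7c, and the most distant pair, let-7d and let-7i, differs by 6. The same seed stands in MIR4458 and MIR4500, which had 0 counts.

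Of these arms, let-7a-5p occurs in 3 RefSeq hairpins and let-7f-5p in 2, and each of the others in 1. The copies part only after the end of the arm, as the hairpins show when read on by 4 bases, here in capitals.
let-7a-5p in MIRLET7A1: ugagguaguagguuguauaguuUUAG
let-7a-5p in MIRLET7A2: ugagguaguagguuguauaguuUAGA
let-7a-5p in MIRLET7A3: ugagguaguagguuguauaguuUGGG
let-7f-5p in MIRLET7F1: ugagguaguagauuguauaguuGUGG
let-7f-5p in MIRLET7F2: ugagguaguagauuguauaguuUUAG
A read of let-7a-5p has to run 2 bases past the arm, and a read of let-7f-5p 1 base, before it matches a single hairpin. MIRLET7A2 has a 3′ arm found in no other hairpin (let-7a-2-3p, cUGUACAGccuccuagcuuucc), and so has MIRLET7F1 (let-7f-1-3p, cUAUACAAucuauugccuuccc), with the seed again in capitals. The file header records no option for reads that map to several places or that overlap several genes, and by the default of the counter neither kind of read is counted. A count is per locus, and the arm it came from was not recorded. For MIRLET7F2 the matched sequences hold the 5′ arm only, so nothing is said here of its 3′ arm.

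**Figure D1:**
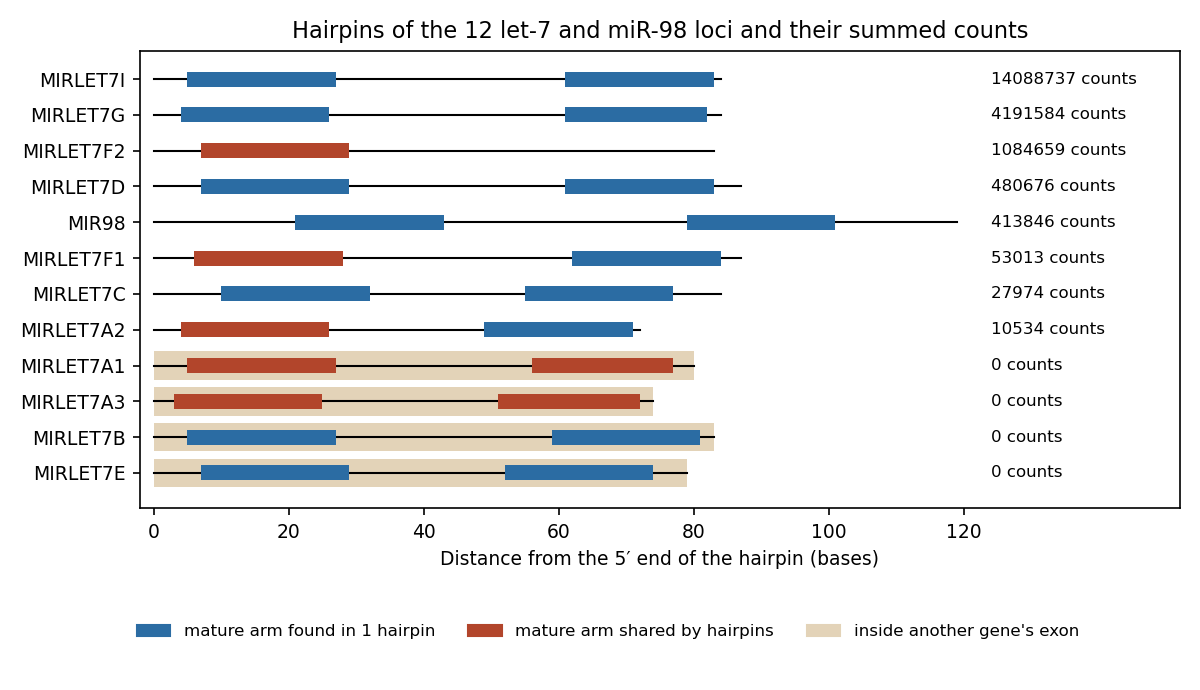
Map of the 12 hairpins of the family, drawn to scale from their 5′ ends (x axis, bases), with the RefSeq mature arms as boxes, blue where found in 1 hairpin and red where shared, a shaded background where the locus lies inside an exon of another gene, and the counts summed over the 15 libraries written at the right. The 4 shaded loci are the 4 with 0 counts, and MIRLET7I has the highest total, 14088737 counts.

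The 4 loci without a count were also the 4 that the annotation places wholly inside an exon of another gene. MIRLET7A3 (GRCh38.p14, chr22:46112749-46112822, plus strand) has all 74 of its bases, and MIRLET7B (chr22:46113686-46113768, plus strand) all 83, in exons of MIRLET7BHG, their host transcript, and of LOC124905135. MIRLET7E (chr19:51692786-51692864, plus strand) has all 79 bases in SPACA6-AS1, a gene on the opposite strand, which counting without strand does not separate. MIRLET7A1 (chr9:94175957-94176036, plus strand) has all 80 bases in its host transcript MIRLET7A1HG. For MIRLET7A3 the 5′ arm and the 3′ arm also occur in MIRLET7A1, so loss to multiple mapping and loss to exon overlap cannot be told apart there. The arms of MIRLET7B and MIRLET7E occur in 1 RefSeq hairpin each. The 0 counts of these 3 members therefore give no level.

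The 7 counted members have no base in an exon of another gene. They are MIRLET7A2 (chr11:122146522-122146593, minus strand), MIRLET7C (chr21:16539828-16539911, plus strand), MIRLET7D (chr9:94178834-94178920, plus strand), MIRLET7F2 (chrX:53557192-53557274, minus strand), MIRLET7G (chr3:52268278-52268361, minus strand), MIRLET7I (chr12:62603686-62603769, plus strand) and MIR98 (chrX:53556223-53556341, minus strand). MIRLET7F1 (chr9:94176347-94176433, plus strand) is also free of overlap. MIRLET7D shares a cluster on chromosome 9 with MIRLET7A1 and MIRLET7F1, and MIRLET7F2 shares one on the X chromosome with MIR98.

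The counted loci of the family took a large share of the small RNA. The 8 loci held 39.7% ± 2.99 (SD, n = 15) of all miRNA counts, between 35.6% and 46.6%, and 15.3% ± 1.78 of all counts. MIRLET7I alone held 64.3% to 75.1% of the family's counts, with a mean of 69.1%, and MIRLET7G a mean of 20.7%. MIRLET7F2 followed with 5.36%, MIRLET7D with 2.37% and MIR98 with 2.04%. MIRLET7F1 held 0.267%, MIRLET7C 0.139% and MIRLET7A2 0.0512%. These are shares of counted reads and not of the mature miRNAs. MIRLET7A1, MIRLET7A3, MIRLET7B and MIRLET7E have no level. By the default of the counter, reads that end with the shared let-7a-5p or let-7f-5p arm are left out too. The shares and ranks of MIRLET7A2, MIRLET7F1 and MIRLET7F2 therefore do not give the abundance of let-7a and let-7f. Among miRNA genes ranked by total count, MIRLET7I was number 2, MIRLET7G 4, MIRLET7F2 7, MIRLET7D 13 and MIR98 15, while MIRLET7C was 50 and MIRLET7A2 71.

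Levels are CPM of a library total that was rescaled by the trimmed mean of M values (TMM), a factor that aligns the bulk of the genes between libraries. Divided by the length of the locus, MIRLET7I averaged 128814 CPM per 100 bases and MIRLET7G 38240. MIRLET7F2 averaged 10103, MIRLET7D 4233 and MIR98 2692 CPM per 100 bases. MIRLET7C and MIRLET7A2 stood lowest among the counted members with 256 and 113, below MIRLET7F1 at 459. The ranges of the 15 libraries overlapped for 2 neighbouring pairs in this order, MIRLET7D with MIR98 and MIRLET7C with MIRLET7A2. Within each library, however, every locus was above the next per length, in 15 of 15. MIRLET7D exceeded MIR98 by 1.24 to 2.07 times and MIRLET7C exceeded MIRLET7A2 by 1.74 to 3.80 times per length. For MIRLET7D and MIR98 this order depends on the division, since their loci have 87 and 119 bases while their mature arms have 22. By count MIR98 was the higher in some libraries, such as VLDL replicate 3 with 34963 counts against 33308.

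**Figure D2:**
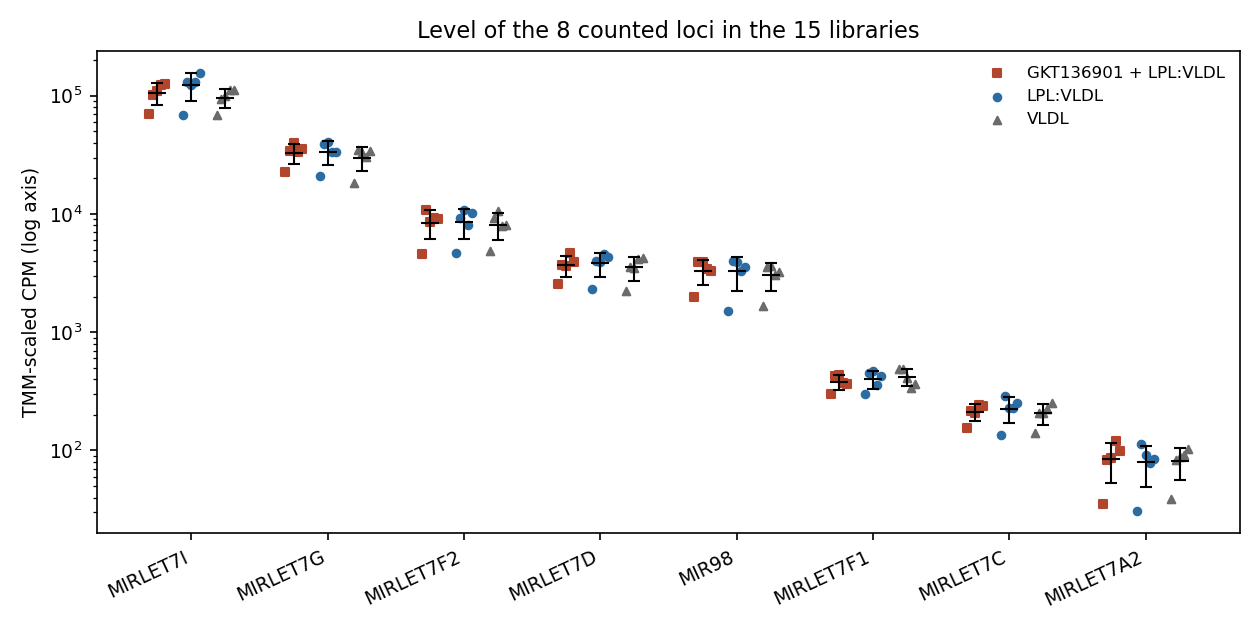
TMM-scaled CPM (log axis) of the 8 counted loci in each library, by treatment; points are libraries, in the order of replicates 1 to 5 from left to right within a treatment, and bars are the mean and SD of 5. The leftmost library of each treatment, from experiment 2, is the lowest for MIRLET7I in all 3 treatments, at 70348, 69259 and 68269 CPM.

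LPL:VLDL was set against VLDL to ask what the lipid products of LPL change. No member was called (0 of 7), nor was any other gene (0% of 4099 tested) by edgeR's quasi-likelihood test at an adjusted p under 0.05, and 77 genes (1.88%) had an unadjusted p under 0.05. DESeq2 and limma voom also called 0 genes in this and both other comparisons when fitted without a block. MIRLET7I, the most abundant member, had 69259, 130628, 123979, 129728 and 156614 CPM in LPL:VLDL cells and 68269, 93268, 99121, 110751 and 110775 CPM in VLDL cells, for replicates 1 to 5. The groups overlap through replicate 1 of LPL:VLDL, and the other 4 LPL:VLDL libraries lie above all 5 VLDL libraries. Its mean was 122042 ± 32085 CPM in LPL:VLDL cells and 96436 ± 17473 CPM in VLDL cells (SD, n = 5 each). The log2 difference was 0.34 (SE 0.20) with an adjusted p of 0.999. In bulk samples such as these, fewer cells of a type and less RNA per cell cannot be told apart.

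Within experiments the spread of MIRLET7I was smaller. The LPL:VLDL library was above the VLDL library in 5 of 5 experiments, by 1.01 to 1.41 times, as it was for MIRLET7D by 1.02 to 1.12 times. Of all tested genes 3.44%, and of tested miRNA genes 11%, were higher in 5 of 5, and 3.46% and 1.03% were lower. With library totals as the scale MIRLET7I was higher in 5 of 5 experiments and MIRLET7D in 3 of 5. As a share of all miRNA counts MIRLET7I was higher in 4 of 5 and MIRLET7D in 1 of 5. The share of all genes at 5 of 5 was not computed on these other scales. Blocked by experiment, edgeR gave MIRLET7I a log2 difference of 0.31 (SE 0.096, unadjusted p 0.0028, adjusted p 0.988), and 1 gene (0.0244%) was called, not a member, while 172 genes (4.2%) had an unadjusted p under 0.05. The blocked DESeq2 fit gave MIRLET7I an adjusted p of 0.492 and the blocked limma voom fit 0.0065, so that only the limma voom fit called it. With TMM taken over miRNA genes alone the blocked difference was 0.18.

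The other members differed less between LPL:VLDL and VLDL than their spread within a group, which holds the differences between experiments. MIRLET7G, the second in abundance, averaged 33492 ± 7693 CPM in LPL:VLDL cells and 29983 ± 6701 CPM in VLDL cells, a log2 difference of 0.16 (SE 0.20). MIR98 averaged 3272 ± 1019 CPM in LPL:VLDL cells and 3025 ± 804 CPM in VLDL cells (0.11, SE 0.24). MIRLET7A2 averaged 79.8 ± 30.3 CPM in LPL:VLDL cells and 80.8 ± 24.7 CPM in VLDL cells (−0.02, SE 0.31). MIRLET7C, MIRLET7D and MIRLET7F2 lay between 0.083 and 0.12. With the experiment as a block the SEs in edgeR were smaller. MIRLET7G then had 0.16 (SE 0.093, unadjusted p 0.099), MIRLET7D 0.11 (SE 0.092) and MIR98 0.090 (SE 0.095), each at an adjusted p of 0.988. Of the 7 members only MIRLET7I, 1 member, had an unadjusted p under 0.05 in that fit. Over the members, 6 of 7 differences were above 0 with a median of 0.11, beside 208 of 291 miRNA genes with a median of 0.12 and a median over all genes of 0.0097. The median of the members was thus close to that of the miRNA genes. With library totals as the scale, or with TMM over miRNA genes alone, MIRLET7C, MIRLET7D, MIRLET7F2 and MIR98 lay below 0, and MIRLET7G and MIRLET7I stayed above it.

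GKT136901 with LPL:VLDL was set against LPL:VLDL to ask what the NOX1 and NOX4 inhibitor changes. No member was called (0 of 7), nor was any gene (0% of 4099) by edgeR, and 87 genes (2.12%) had an unadjusted p under 0.05. MIRLET7I had 70348, 100447, 109550, 123621 and 126703 CPM with GKT136901, against the LPL:VLDL values given above. The GKT136901 library was the lower in 4 of 5 experiments, and the ranges overlap. Its mean was 106134 ± 22658 CPM with GKT136901 and 122042 ± 32085 CPM with LPL:VLDL alone (SD, n = 5 each), a log2 difference of −0.20 (SE 0.20). Blocked by experiment it was −0.19 (SE 0.096, unadjusted p 0.063), and no gene was called by edgeR, with 151 (3.68%) at an unadjusted p under 0.05.

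Of the 7 members, 2 had a difference above 0 in this comparison, MIRLET7A2 at 0.084 (SE 0.31) and MIR98 at 0.018 (SE 0.24), and the median was −0.03. With library totals as the scale MIRLET7C, MIRLET7D, MIRLET7F2 and MIRLET7G lay above 0 too. Of the 291 miRNA genes 137 were above 0, with a median of −0.01. MIRLET7G averaged 32888 ± 6331 CPM with GKT136901 and 33492 ± 7693 CPM with LPL:VLDL alone, and MIRLET7F2 averaged 8424 ± 2301 CPM and 8607 ± 2432 CPM in the same order. On TMM-scaled CPM no member was higher, and none lower, in 5 of 5 experiments, beside 3.2% of all genes higher and 3.32% lower, and 7.56% of tested miRNA genes higher and 4.81% lower. On other scales this differed. MIR98 was higher in 3 of 5 experiments on TMM-scaled CPM. It was higher in 5 of 5 both with library totals as the scale and as a share of miRNA counts. MIRLET7I was higher in 1 of 5 with library totals and in 0 of 5 as a share of miRNA counts. The share of all genes at 5 of 5 was not computed on these scales, so these counts have no background beside them. The median edgeR difference of all genes was 0.064 with library totals and −0.019 with TMM.

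GKT136901 with LPL:VLDL was also set against VLDL, which shares the GKT136901 libraries with the comparison before and the VLDL libraries with the first. No member was called (0 of 7), nor was any gene (0% of 4099), and 91 genes (2.22%) had an unadjusted p under 0.05. MIRLET7I averaged 106134 ± 22658 CPM with GKT136901 and 96436 ± 17473 CPM with VLDL, a log2 difference of 0.14 (SE 0.20). MIR98 averaged 3314 ± 796 CPM with GKT136901 and 3025 ± 804 CPM with VLDL, a log2 difference of 0.13 (SE 0.24). The GKT136901 library was the higher for both loci in 5 of 5 experiments, by 1.03 to 1.14 times for MIRLET7I and 1.02 to 1.20 times for MIR98, on TMM-scaled CPM. With library totals as the scale both were higher in 4 of 5, and as a share of miRNA counts MIRLET7I was higher in 4 of 5 and MIR98 in 3 of 5. Of tested miRNA genes 11% were higher and 1.37% lower in 5 of 5, and of all tested genes 3.66% were higher and 3.73% lower. Blocked by experiment, edgeR called no gene (0%), and 177 (4.32%) had an unadjusted p under 0.05. All 7 members had differences above 0, with a median of 0.065, and 205 of 291 miRNA genes did, with a median of 0.13. With TMM over miRNA genes alone MIRLET7A2, MIRLET7C, MIRLET7D and MIRLET7F2 lay below 0.

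**Figure D3:**
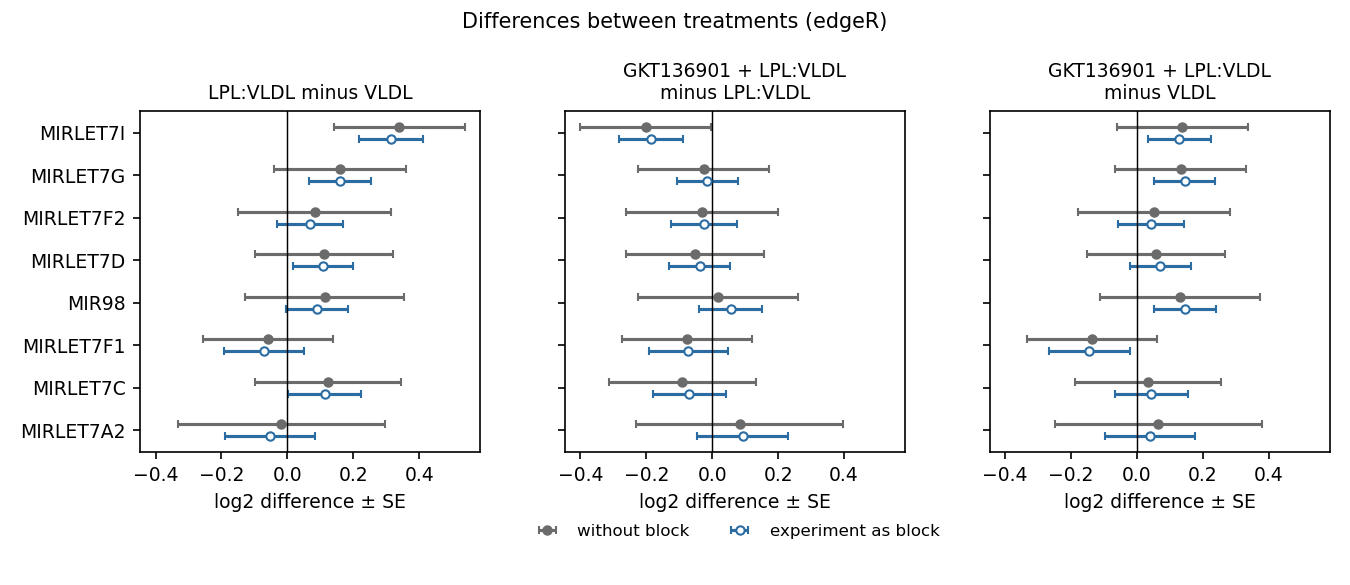
log2 difference ± SE (edgeR) of the 8 counted loci in the 3 comparisons, without a block and with the experiment as a block. MIRLET7I lies farthest from 0 in the first panel, at 0.34 without a block and 0.31 with it, and no locus was called in any panel.

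Summed over the 8 counted loci, the family took 15.5% ± 3.10 of TMM-scaled counts with GKT136901, 17.2% ± 4.21 with LPL:VLDL and 14.2% ± 2.63 with VLDL (SD, n = 5 each). As a share of miRNA counts it took 39.1% ± 2.06, 41.1% ± 3.93 and 38.8% ± 2.73 in that order. On each scale the means of any pair of groups differed by less than the larger of their SDs, which hold the spread between experiments. MIRLET7I held 64.3% to 75.1% of the counts in this sum, which mostly follows that locus. Within experiments the TMM-scaled sum was higher with LPL:VLDL than with VLDL in 5 of 5, by 1.03 to 1.30 times. Of the other members, MIRLET7D was higher there in 5 of 5, MIRLET7F2, MIRLET7G and MIR98 in 4, MIRLET7C in 3 and MIRLET7A2 in 2. Of single genes 3.44%, and of miRNA genes 11%, were higher in 5 of 5. The sum was also higher with GKT136901 than with VLDL in 5 of 5, by 1.06 to 1.11 times. With GKT136901 it was higher than with LPL:VLDL in 1 of 5, at 0.815 to 1.03 times. For the sum as a share of miRNA counts these numbers were 4 of 5, 4 of 5 and 0 of 5. With library totals they were 4 of 5, 4 of 5 and 3 of 5. Shares of single genes were not computed on those scales.

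On TMM-scaled CPM the members differed more between experiments than between treatments. The experiment accounted for 81.7% to 95.6% of the variance of their log2 levels on that scale, and the treatment for 0.461% to 13.3%. These shares were not computed on other scales and need not hold there. The F test of the 5 experiments, with the treatment in the edgeR model, called all 7 tested members, beside 11.1% of all 4099 genes and 38.5% of the 291 miRNA genes. The adjusted p was 2.4e-07 for MIR98, 2.3e-06 for MIRLET7A2, 2.4e-06 for MIRLET7F2, 1.9e-05 for MIRLET7D, 3.9e-05 for MIRLET7G, 4.8e-05 for MIRLET7I and 0.0018 for MIRLET7C. For all 7 members the 3 libraries of experiment 2 lay below the other 12, as they did for 24.4% of tested miRNA genes and 4.64% of all tested genes. MIRLET7F1 was not called (adjusted p = 0.387).

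MIR98 had 1986 CPM with GKT136901, 1523 with LPL:VLDL and 1656 with VLDL in experiment 2, and between 3047 and 4008 with a median of 3557 in the 12 libraries of experiments 3 to 6. Its mean in experiment 2 was 0.481 times the mean of the others. MIRLET7F2, its cluster partner, had 4558, 4655 and 4906 CPM in experiment 2 in the same order of treatments, and between 7947 and 10844 with a median of 9156 in experiments 3 to 6. The sets of libraries do not overlap for either locus, and the count ratio of MIRLET7F2 to MIR98 stayed between 2.17 and 3.06 in all 15 libraries.

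MIRLET7A2 had the largest shift of the members, with 35.3 CPM (GKT136901), 30.7 (LPL:VLDL) and 38.6 (VLDL) in experiment 2, and between 79.0 and 119 with a median of 89.1 in experiments 3 to 6. That is 0.376 times the mean of the others. MIRLET7I had 70348, 69259 and 68269 CPM in experiment 2, in the same order, and between 93268 and 156614 with a median of 117198 in experiments 3 to 6. MIRLET7G had 22523, 21035 and 18400 CPM in experiment 2 and between 30164 and 40427 with a median of 33978 in the others. These loci, MIRLET7D and MIRLET7C were each at 0.376 to 0.622 times the mean of experiments 3 to 6. The 3 libraries of experiment 2 lay close to each other for MIRLET7I, while experiments 3 to 6 spread more widely.

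**Figure D4:**
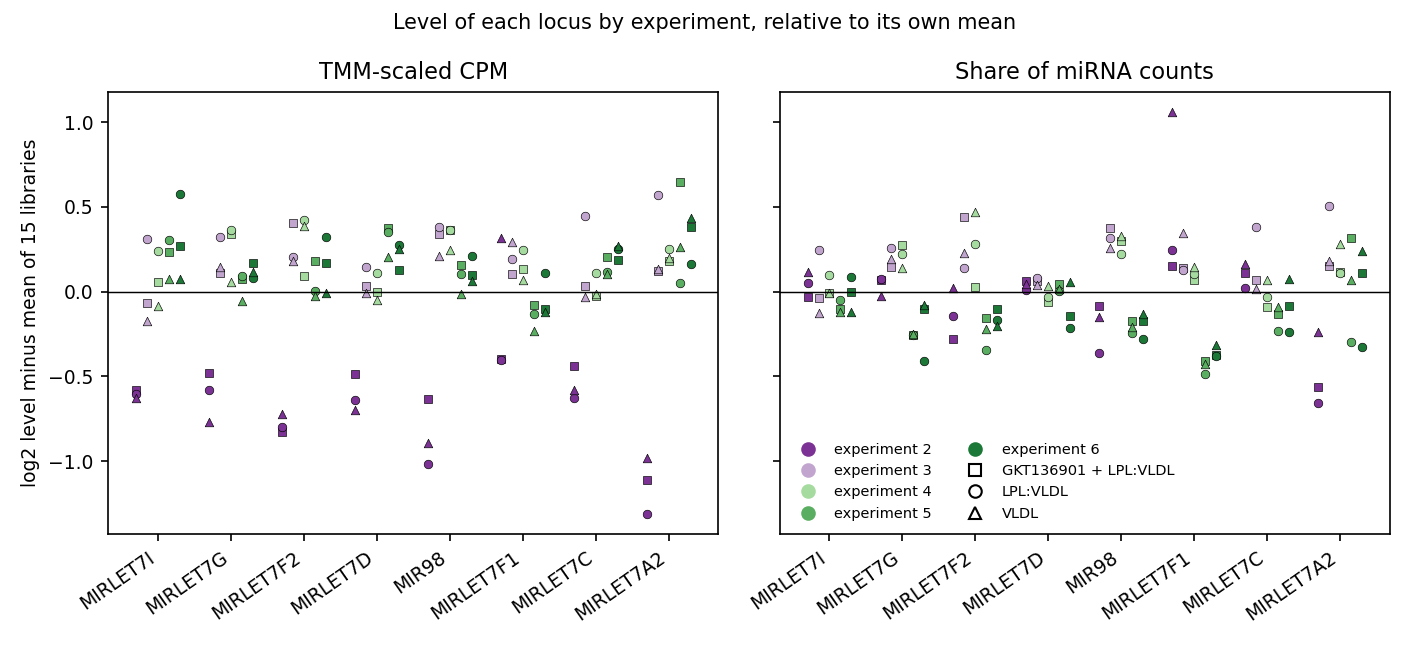
Level of each counted locus minus its own mean over the 15 libraries, on a log2 scale, as TMM-scaled CPM (left) and as a share of miRNA counts (right); each point is a library, with a colour for the experiment and a symbol for the treatment. On the left the 3 libraries of experiment 2 lie below all others for the 7 members, and for MIRLET7F1 the VLDL library of experiment 2 lies highest, at 492 CPM.

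The size of this shift depended on the scale. Experiment 2 minus the others was a log2 difference of −1.41 for MIRLET7A2, −1.06 for MIR98, −0.98 for MIRLET7F2, −0.76 for MIRLET7D and MIRLET7G, −0.75 for MIRLET7I and −0.68 for MIRLET7C on TMM-scaled CPM, where the median was −0.52 over miRNA genes and 0.11 over all genes. On shares of miRNA counts it was −0.61 for MIRLET7A2, −0.25 for MIR98, −0.17 for MIRLET7F2, 0.049 for MIRLET7D and MIRLET7G, 0.056 for MIRLET7I and 0.12 for MIRLET7C, where the median was 0.26 over miRNA genes, with 35.1% of them below 0, and 0.94 over all genes, with 17.1% below 0. With library totals as the scale all 7 members lay below 0, from −0.99 for MIRLET7A2 to −0.26 for MIRLET7C. MIRLET7A2, MIR98 and MIRLET7F2 were thus lower in experiment 2 on each of these scales, and the direction of the other 4 turned on shares of miRNA counts. With TMM over miRNA genes alone, 3 of 7 members were called (13.4% of all genes), MIR98 at an adjusted p of 0.00039, MIRLET7A2 at 0.0017 and MIRLET7F2 at 0.010. With library totals as the scale 6 of 7 were called (12.5% of all genes), MIRLET7C at 0.475 being the exception. Without experiment 2, 0 of 7 members and 145 of 3852 genes (3.76%) were called by edgeR, with adjusted p for the members from 0.314 to 0.987. The TMM factors of the experiment 2 libraries were 1.16 to 1.34, against 0.765 to 1.03 in experiments 3 to 6, and their part, that of the Y RNA share and that of the myeloid markers were not tested.

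Of the miRNA genes clustered with MIRLET7A2 and MIRLET7C, MIR100, MIR125B1 and MIR99A were higher in experiment 2. MIR100, on chromosome 11 with MIRLET7A2, had 3668, 3346 and 3027 CPM (GKT136901, LPL:VLDL, VLDL) in experiment 2. It had 1037 to 1219 CPM in experiments 3 and 4 and 64.3 to 93.1 CPM in experiments 5 and 6, which are 3 separate levels without overlap (edgeR adjusted p between experiments 4.0e-23). The count ratio of MIR100 to MIRLET7A2 was 78.5 to 109 in experiment 2 and 0.704 to 14.1 in experiments 3 to 6. MIR125B1, a further gene of that cluster, had 29.4 to 43.8 CPM in experiment 2 and 0.241 to 18.9 CPM in the others (adjusted p 3.5e-14).

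MIR99A, beside MIRLET7C on chromosome 21, had 76.7 to 83.3 CPM in experiment 2 and 8.46 to 25.1 CPM in experiments 3 to 6 (adjusted p 9.4e-10). The count ratio of MIRLET7C to MIR99A was accordingly 1.70 to 1.87 in experiment 2 and 9.03 to 28.3 in the others. MIR125B2, the third gene of that cluster, had 24 counts in all. MIR10526, beside MIR100, had 4 counts, all in 1 library, and MIR4763, beside MIRLET7A3 and MIRLET7B with all 92 of its bases in exons of MIRLET7BHG and LOC124905135, had 0 counts. Near MIRLET7E, MIR99B had 39 counts, with 48 of its 70 bases in SPACA6-AS1, and MIR125A had 0 counts, with all 86 bases in exons of other genes. Neighbours on a chromosome thus had unlike levels over the experiments in the clusters of MIRLET7A2 and MIRLET7C, and like ones in the pair of MIRLET7F2 and MIR98. On chromosome 9 the count ratio of MIRLET7D to MIRLET7F1 was 4.50 to 8.55 in experiment 2 and 7.38 to 12.8 in experiments 3 to 6. By the default of the counter, MIRLET7A2 counts leave out reads that end with the shared let-7a-5p arm. Counts of MIRLET7F1 and MIRLET7F2 likewise leave out reads that end with let-7f-5p. The levels of these loci need not follow those miRNAs.

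**Figure D5:**
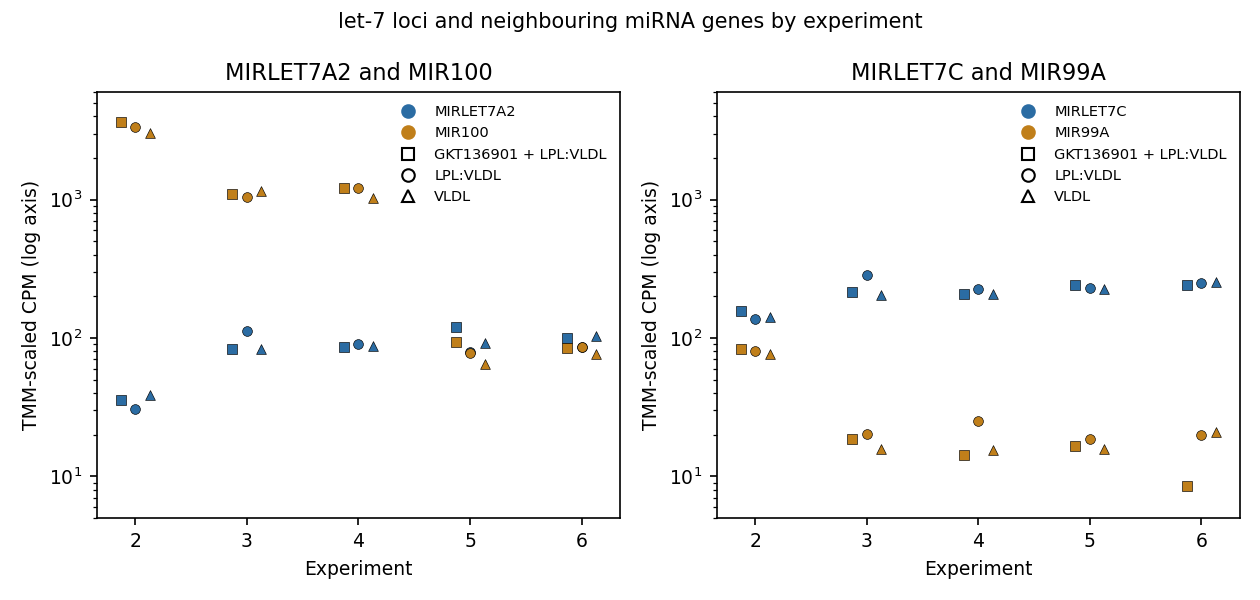
TMM-scaled CPM (log axis) of MIRLET7A2 and MIR100 (left) and of MIRLET7C and MIR99A (right) by experiment, 1 point per library, with a symbol for each treatment. MIR100 has 3 levels, 3027 to 3668, 1037 to 1219 and 64.3 to 93.1 CPM, while MIRLET7A2 runs from 30.7 to 119 CPM.

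The miRNA gene whose pattern lay nearest to a member was found by the root mean square difference of centred log2 CPM over the 15 libraries, where a smaller value means a closer pattern. MIRLET7F2 and MIR98 were nearest to each other (0.138), and MIRLET7C was nearest to MIRLET7D (0.118). MIRLET7D was nearest to MIR328 (0.106), MIRLET7G to MIR505 (0.092) and MIRLET7A2 to MIR548E (0.180). For MIRLET7I the 5 nearest were MIR629 (0.114), MIR532 (0.130), MIR744 (0.133), MIRLET7D (0.137) and MIR3909 (0.138). The median distance of a member to all tested miRNA genes was 0.524 to 0.644. These patterns all contain the low experiment 2, which the libraries share.

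Fragments of messenger RNAs were sparse in these libraries. Of 20 genes known to act in the making or decay of let-7, 18 had a count and 9 were tested. None was called by edgeR in any treatment comparison (0% of all genes) or between experiments (11.1% of all genes). Between GKT136901 and VLDL 2 had an unadjusted p under 0.05, beside 2.22% of all tested genes. In LPL:VLDL against VLDL and GKT136901 against LPL:VLDL 0 did, beside 1.88% and 2.12% of all tested genes. LIN28B, which blocks let-7 maturation, had 0 counts, which allows up to 3 counts over the 15 libraries, and LIN28A had 4. Per kilobase of exon the 4 highest were AGO2, an Argonaute that carries miRNAs, at 0.612 CPM, KHSRP, which binds let-7 precursors, at 0.379, the nuclease DROSHA at 0.360 and ADAR, an RNA editing enzyme, at 0.291. AGO2 averaged 11.02 ± 1.98 CPM in GKT136901 libraries, 10.9 ± 2.87 in LPL:VLDL libraries and 10.9 ± 2.89 in VLDL libraries. The median difference of the 9 genes was −0.23 between LPL:VLDL and VLDL, 0.16 between GKT136901 and LPL:VLDL and 0.012 between GKT136901 and VLDL. Blocked by experiment the medians were −0.15, 0.044 and 0.043 in the same order, and 0 of the 9 genes had an unadjusted p under 0.05 in any treatment comparison.

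Of 44 genes known as let-7 targets in some cell type, 37 had a count and 18 were tested. None was called by treatment, and 1 had an unadjusted p under 0.05 (GKT136901 against VLDL, beside 2.22% of all tested genes). LIN28B and DICER1 stand in both lists, so the lists are not separate evidence. DICER1, the tested one, had a log2 difference of 1.38 (SE 0.66) between GKT136901 and VLDL, from 139 counts over the 15 libraries. AGO3, an Argonaute of the regulator list, lay the other way in that comparison at −1.70 (SE 0.81), from 150 counts. The median differences of the targets were −0.10, 0.17 and 0.034 in the same order of comparisons. Blocked by experiment they were −0.20, 0.13 and 0.018, and 0 targets had an unadjusted p under 0.05. Per kilobase of exon the 4 highest were TRIB1, a pseudokinase, at 1.55 CPM, the transcription factor MYC at 1.47, the cyclin CCND1 at 0.740 and the kinase CDK6 at 0.660. HMGA2, the chromatin protein that is the classical let-7 target, had 262 counts. Between experiments 2 of 18 were called, about the same share as the 11.1% of all genes. IRS2, an insulin receptor substrate, had 0.521 to 2.11 CPM in experiment 2 and 3.68 to 9.09 in the others without overlap (adjusted p = 0.0011). MAP4K4, a kinase, averaged 6.61 CPM in experiment 2 and 2.84 in the others, with ranges that overlap (adjusted p = 0.026). The 2 targets lay in opposite directions in experiment 2. There the 7 members were low on TMM-scaled CPM, but only 3 of them on shares of miRNA counts, and a link with the targets was not tested.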

How the data were processed

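Small RNA was sequenced from 15 libraries in 3 treatment groups. Per the labels' protocols, TRIzol RNA was freed of DNA with a DNase, and NEBNext small RNA libraries were read on a NovaSeq X instrument. The deposited values are raw read counts per gene, which the authors made, per the file headers, with featureCounts 2.0.6 over exons of the RefSeq annotation of hg38, with no option for strand, multiply mapped or multiply assigned reads. The submitters' processing notes also name fastp 0.24.0, STAR 2.7.11b, R 4.4.2, edgeR 4.4.2 and DESeq2 1.46. From the counts, edgeR 4.0.16 in R 4.3.3 was run on the 4099 genes that passed filterByExpr (minimum count 10, total 15), which hold 99.7% of all counts, with TMM scaling, 1 model for the 3 groups and Benjamini-Hochberg adjustment over all genes tested. Genes with an adjusted p under 0.05 are called. No block was used. The alternatives were a block by experiment, DESeq2 1.42.0, limma 3.58.1 (voom), other scalings and filters, and leaving out libraries. Same-numbered libraries share an experiment by the labels, so the numbers pair the samples. Their deviations from the group means correlated at 0.066 to 0.38 (15 pairs), against −0.15 to 0.15 for other numbers (60 pairs). The script was tested on simulated data. The members and the gene lists were chosen with earlier results of these data known. Named genes are all members, overlapping and neighbouring genes, the nearest miRNA gene of each member (5 for the most abundant), and from the regulator and target lists those called and the 4 highest, here per kilobase. RefSeq sequences were matched for all 12 loci. Counting error is small beside the spread between libraries for the members, whose lowest count in a library was 341.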

Additional observations from a re-analysis of the deposited data

Results flagged for a closer look

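In 33 groups of 5 libraries the lowest or highest library was checked for a gap to its nearest neighbour above the 95% critical share of the group's range (Dixon's criterion, which chance passes in about 1 of 20 groups). Of the 5 that passed, 4 lie in experiment 2. MIRLET7G was at 18400 CPM in VLDL replicate 1, with the next library at 30164. MIR98 was at 1523 CPM in LPL:VLDL replicate 1, with the next at 3311. The summed family took 9.92% of TMM-scaled counts in LPL:VLDL replicate 1, with the next at 18.0%, and 9.61% in VLDL replicate 1, with the next at 14.5%. The total count of GKT136901 replicate 2, in experiment 3, was 5076917, with the next at 8360737.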

How the results depend on the processing

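Without a block, no gene was called in any treatment comparison by edgeR, DESeq2 or limma voom. With the experiment as a replicate block, LPL:VLDL against VLDL had 1 gene called by edgeR, 1 by DESeq2 and 2 by limma voom, and GKT136901 against VLDL had 2 by DESeq2 and 1 by limma voom; the limma voom block called MIRLET7I, as given above, and the block changed no other call of a member. Leaving out libraries gave 0 to 2 calls for LPL:VLDL against VLDL (0 without the block, 2 with it and without experiment 3) and 145 to 506 between experiments, the lowest without experiment 2. Signs of members turned as follows (log2 differences, none called). Library totals as the scale, under which the median of all genes for LPL:VLDL against VLDL was −0.11 (0.0097 with TMM), gave MIRLET7C −0.040, MIRLET7D −0.035, MIRLET7F2 −0.078 and MIR98 −0.056 there, and MIRLET7C 0.042, MIRLET7D 0.068, MIRLET7F1 0.037, MIRLET7F2 0.094 and MIRLET7G 0.095 for GKT136901 against LPL:VLDL. TMM over miRNA genes put that median at −0.11 for LPL:VLDL against VLDL, with MIRLET7C −0.0061, MIRLET7D −0.021, MIRLET7F2 −0.057 and MIR98 −0.022, and at −0.16 (−0.0042 with TMM) for GKT136901 against VLDL, with MIRLET7A2 −0.059, MIRLET7C −0.091, MIRLET7D −0.063 and MIRLET7F2 −0.077. The same scale with the block gave −0.020, −0.024, −0.069 and −0.045 for MIRLET7C, MIRLET7D, MIRLET7F2 and MIR98 in the first, and −0.10, −0.098, −0.069, −0.095 and −0.013 for MIRLET7A2, MIRLET7C, MIRLET7D, MIRLET7F2 and MIRLET7I in the second. For GKT136901 against LPL:VLDL, MIR98 was −0.0024 with no filter, and MIRLET7D, MIRLET7F2 and MIRLET7G were 0.0086, 0.032 and 0.033 with a minimum count of 50. Leaving out libraries gave, for GKT136901 against LPL:VLDL, ranges of −0.16 to 0.16 (MIR98), −0.12 to 0.29 (MIRLET7A2), −0.22 to 0.014 (MIRLET7C), −0.19 to 0.065 (MIRLET7D), −0.17 to 0.0061 (MIRLET7F1), −0.19 to 0.13 (MIRLET7F2) and −0.16 to 0.091 (MIRLET7G). For GKT136901 against VLDL the ranges were −0.035 to 0.27 (MIR98), −0.12 to 0.27 (MIRLET7A2), −0.085 to 0.13 (MIRLET7C), −0.078 to 0.17 (MIRLET7D), −0.095 to 0.21 (MIRLET7F2) and −0.011 to 0.24 (MIRLET7G). For LPL:VLDL against VLDL they were −0.054 to 0.29 (MIR98), −0.21 to 0.18 (MIRLET7A2), −0.030 to 0.24 (MIRLET7D), −0.15 to 0.029 (MIRLET7F1) and −0.067 to 0.23 (MIRLET7F2). With the block and an experiment left out, GKT136901 against LPL:VLDL gave 0.026 and 0.039 for MIRLET7C and MIRLET7G (without replicate 2), 0.00081, 0.067 and 0.0087 for MIRLET7D, MIRLET7F2 and MIRLET7G (replicate 3), −0.015 for MIR98 (replicate 1), −0.040 for MIRLET7A2 (replicate 4) and 0.012 for MIRLET7F2 (replicate 5). GKT136901 against VLDL gave −0.0081 for MIRLET7C (replicate 1), −0.0098 for MIRLET7F2 (replicate 2) and −0.057 for MIRLET7A2 (replicate 4), and LPL:VLDL against VLDL gave 0.066 for MIRLET7F1 (replicate 1) and −0.0055 for MIRLET7F2 (replicate 5). The block without the shallow GKT136901 replicate 2, chosen after seeing the data, gave 0.035 for MIRLET7G against LPL:VLDL and −0.014 for MIRLET7F2 against VLDL. The difference of MIRLET7I between LPL:VLDL and VLDL stayed above 0 in every alternative, at 0.21 to 0.48 when libraries were left out. The cause of these turns was not tested.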

Other observations

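The let-7f-5p arm stands in the hairpins of MIRLET7F2 and MIRLET7F1, and the count ratio of MIRLET7F2 to MIRLET7F1 was not the same in all experiments. By the default of the counter, reads that end with the shared arm are left out of both loci. The ratio is therefore one of counted reads and not of the let-7f made from each locus. This count ratio was 9.97 to 15.6 in experiment 2 and 18.9 to 25.6 in experiments 3 to 6. The lowest ratio belongs to the VLDL library of experiment 2, where MIRLET7F1 had 492 CPM, against 300.2 CPM in the GKT136901 library and 298 CPM in the LPL:VLDL library of the same experiment. MIRLET7F1 passed the test between experiments (adjusted p = 0.021) when that library was left out. On the X chromosome the ratio of MIRLET7F2 to MIR98 was 2.29 to 3.06 in experiment 2 and 2.17 to 2.90 in experiments 3 to 6. The ratio of MIRLET7I to MIRLET7G, the most abundant members, ran from 2.69 to 4.72 over the 15 libraries, with means of 3.24 in the GKT136901 group, 3.65 in the LPL:VLDL group and 3.27 in the VLDL group.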
